A study of Mus musculus with 28 samples.

Results

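The ciliary neurotrophic factor (CNTF) and leukemia inhibitory factor (LIF) cytokine axis was followed through 6 genes chosen by name from textbook knowledge of the pathway, out of 41605 gene identifiers in the count table. They are the ligand genes Cntf, Lif and Clcf1, the ligand-binding receptor gene Cntfr, and the signal-transducing receptor genes Lifr and Il6st (gp130). All 6 passed the filter on low counts, which left 17700 genes to test. The libraries were poly-A RNA from peripheral nerve of wild-type C57BL/6J mice without any transgene or treatment, at 7 stages with 4 libraries each. The stages were embryonic day (E) 13 and E17 as labelled, postnatal day (P) 1, P5, P14 and P24, and the young adult at P60. The study gives the embryonic stages as E13.5 and E17.5. Each E13 library pooled nerves of various kinds distal to the dorsal root ganglia from 2 embryos, and these were not stripped, although the label names sciatic nerve. Each E17 library pooled the sciatic nerves of 2 embryos, and each postnatal library came from 1 mouse. From E17 onwards the epineurium and perineurium were pulled off as far as possible, which enriched for the endoneurium, and no animal was perfused.

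Cytokines of this family act through receptor complexes that share Il6st. CNTF and CLCF1 bind the membrane-anchored CNTFR, which then brings in LIFR and IL6ST, whereas LIF binds LIFR and IL6ST without CNTFR. The receptor chains activate Janus kinases and STAT3, and STAT3 induces the feedback inhibitor SOCS3. In peripheral nerve CNTF is known as a cytosolic protein of myelinating Schwann cells that lacks a classical secretion signal, and LIF as a cytokine that is induced after nerve injury.

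Levels are in CPM, read counts scaled to the same library total with TMM scaling factors. A gene was called when edgeR's quasi-likelihood test gave a Benjamini-Hochberg adjusted p under 0.05 over all 17700 genes and the fold change was at least 2. Each fold change is a log2 value ± its standard error. In bulk tissue fewer cells of a type and less RNA per cell cannot be told apart. The Schwann cell marker Sox10 was at 34.1 to 170 CPM in the E13 libraries and at 209 to 531 CPM in all later ones. Markers of neuronal cell bodies (Elavl3, Elavl4, Snap25, Syt1 and Tubb3) summed to 859 to 1649 CPM at E13 and to 13.6 to 21.1 CPM at E17, and skeletal muscle markers to 19.04 to 485 CPM at E13. From E13 to E17 the median sum went from 290 to 77.6 CPM for macrophage markers and from 561 to 5443 CPM for fibroblast-like markers. For the cartilage markers Col2a1, Acan and Matn1 it went from 180 to 43.5 CPM. The paper uses Col2a1 to label endoneurial cells, and Matn1 had at most 3 counts in any E17 library. The E17 sum therefore need not come from cartilage. Erythroid markers summed to 5642 CPM in E13 replicate 4, to 587 to 1242 CPM in the other E13 libraries and to 311 to 875 CPM at E17, and E13 replicate 4 also had the highest neuronal sum. In E17 against E13, the age, the tissue taken and the dissection cannot be told apart, and the part of these cell types was not tested.

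The promoter windows of Cntf, Lif and Il6st are shown because Cntf and Lif had the widest ranges of level along the timeline and Il6st had one of the narrower ranges. Each holds 250 bases before the transcript start and 50 from it on, written 5′ to 3′ on the gene's strand, from RefSeq on GRCm38.p6. Cntf lies at chr19:12765583-12765882 on the minus strand, Lif at chr11:4257318-4257617 on the plus strand and Il6st at chr13:112463820-112464119 on the plus strand. Capitals mark an AP-1 motif.
Cntf: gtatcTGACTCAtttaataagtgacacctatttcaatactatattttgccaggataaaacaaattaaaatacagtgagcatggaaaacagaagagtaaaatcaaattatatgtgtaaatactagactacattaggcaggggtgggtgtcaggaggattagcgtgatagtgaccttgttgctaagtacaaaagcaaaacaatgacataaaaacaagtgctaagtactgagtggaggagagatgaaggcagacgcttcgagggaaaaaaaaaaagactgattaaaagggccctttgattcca
Lif: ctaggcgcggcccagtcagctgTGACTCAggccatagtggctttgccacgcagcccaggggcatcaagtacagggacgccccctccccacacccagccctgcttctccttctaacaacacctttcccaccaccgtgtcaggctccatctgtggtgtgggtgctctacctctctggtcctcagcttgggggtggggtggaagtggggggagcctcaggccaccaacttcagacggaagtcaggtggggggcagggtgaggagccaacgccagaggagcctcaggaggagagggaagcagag
Il6st: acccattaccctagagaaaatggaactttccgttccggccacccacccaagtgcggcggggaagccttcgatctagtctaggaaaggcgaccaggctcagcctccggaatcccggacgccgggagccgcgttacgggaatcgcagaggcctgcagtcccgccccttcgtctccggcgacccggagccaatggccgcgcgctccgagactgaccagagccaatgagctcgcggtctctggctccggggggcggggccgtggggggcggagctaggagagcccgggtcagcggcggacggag

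The Cntf window has a GC content of 36.3% and 3 CpG dinucleotides, and 31.4% of 32851 RefSeq promoter windows have no more. The Lif window has a GC content of 63.7% and 7 CpG dinucleotides, which is the median of all windows. The Il6st window has 33 CpG dinucleotides, at or above 92.3% of windows. Windows were searched on both strands for the AP-1 motif TGANTCA, the STAT motif TTCNNNGAA and the SOX motif ACAAAG, none of which overlapped another in the members' windows. The AP-1 motif starts at base 6 of the Cntf window and at base 23 of the Lif window, and 7.81% of all windows hold it. It was absent from the windows of Il6st, Cntfr and Lifr. Neither the STAT motif, held by 8.3% of windows, nor the SOX motif, held by 18.7%, was found in any member's window. Of the 6 members, 5 had a window.

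Between the newborn and the young adult nerve 4 of the 6 genes were called, and all 4 were higher at P60 than at P1, beside 35.5% of all genes called and 20.3% called higher. These were the 3 ligand genes Cntf, Lif and Clcf1 and the receptor gene Cntfr. The call of Clcf1 sat at the 2-fold minimum and was lost under several alternatives, with 3 of the 6 called under a replicate block. The signalling receptors Lifr and Il6st also had an adjusted p under 0.05 but a fold change under 2. The sizes ran from 7.85 ± 0.17 for Cntf to 0.71 ± 0.14 for Il6st on the log2 scale, against a median of -0.02 over all genes tested.

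Between adjacent stages, Lif, Lifr and Il6st were called higher in E17 against E13, 3 of 6 beside 35.5% of all genes called and 14.2% called higher, and 1 of 6 (Lif) without E13 replicate 4. In P1 against E17 Cntf was higher and Cntfr lower, 2 of 6 beside 11.7%. Cntf was the called gene in P5 against P1 (1 of 6 beside 5.84%), in P14 against P5 (1 of 6 beside 12%) and in P60 against P24 (1 of 6 beside 5.96%). Lif was the called gene in P24 against P14 (1 of 6 beside 2.65%). Tested for any change over the 7 stages, 6 of 6 genes passed, beside 88.8% of all genes.

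**Figure D1:**
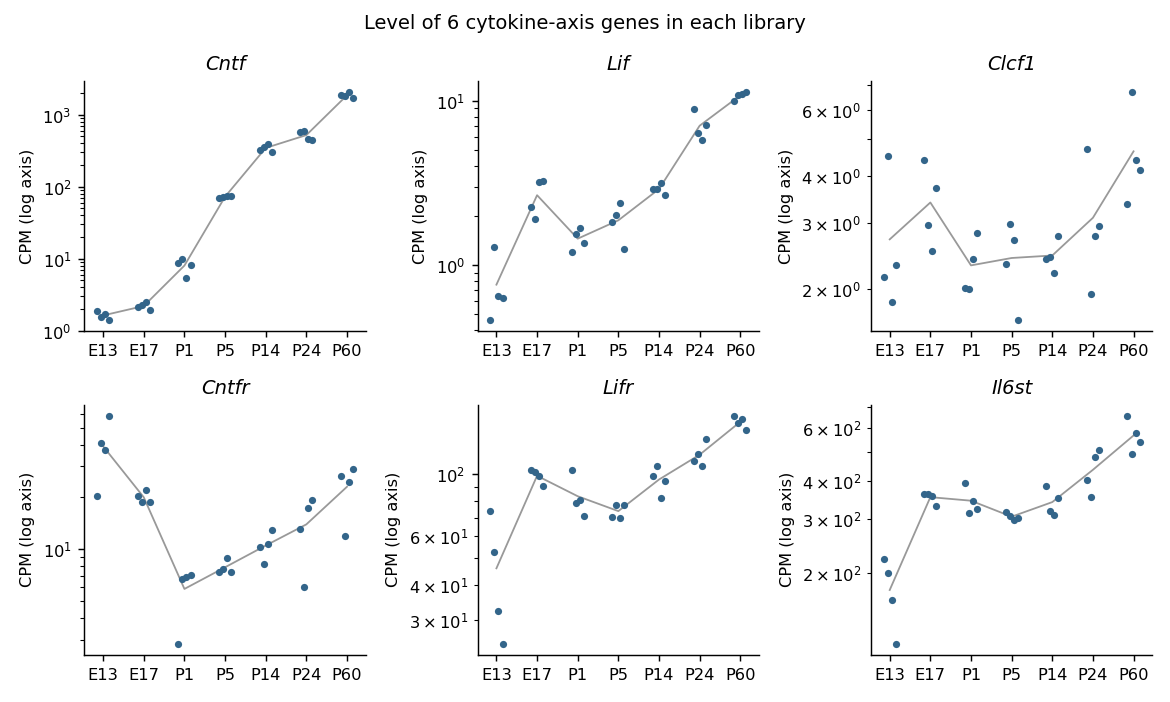
Level of each of the 6 genes in each of the 28 libraries by stage, in CPM on a log axis, with 1 point per library and a line through the stage means. Cntf rose from under 3 CPM before birth to 1717 CPM or more in every P60 library, whereas Lifr and Il6st had their lowest libraries at E13 and Cntfr was lowest at P1.

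**Figure D2:**
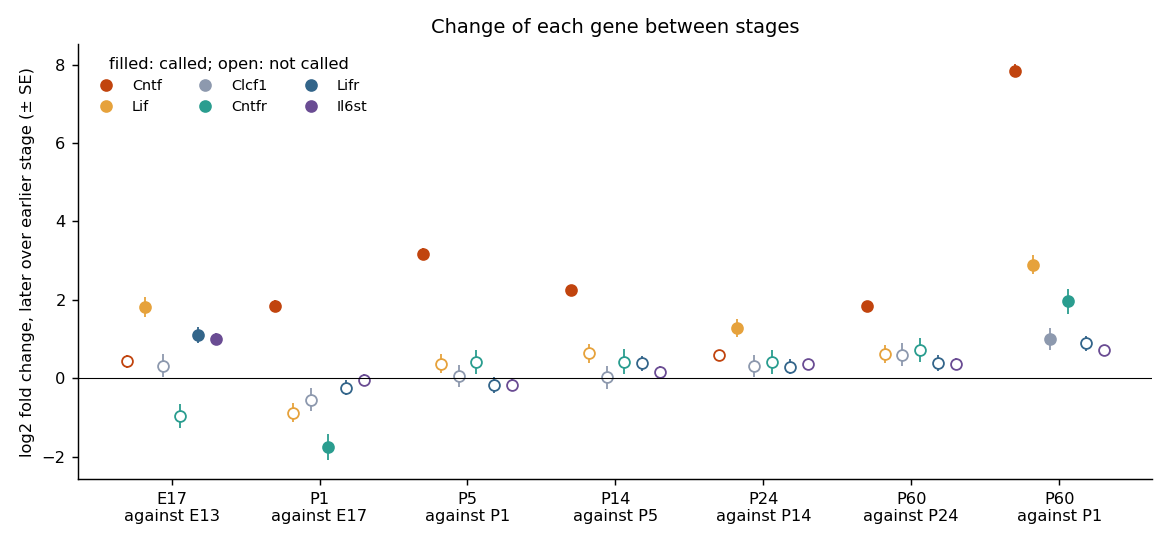
Log2 fold change of each gene in each stage comparison, with bars of 1 standard error, filled where called and open where not. Cntf has the values farthest from 0 in P5 against P1 (3.17) and P60 against P1 (7.85).

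Cntf (ENSMUSG00000079415, chr19:12763660-12765632, minus strand) encodes the neurotrophic cytokine itself. It stood at 1.85, 1.53, 1.73 and 1.42 CPM in the 4 E13 libraries and at 2.14, 2.27, 2.48 and 1.95 CPM at E17. At P1 it was at 8.67, 9.79, 5.43 and 8.28 CPM, and at P5 at 69.7, 72.4, 74.0 and 74.1 CPM. Every P5 library thus lay above every P1 library, and these above every E17 library. It reached 327, 357, 393 and 302 CPM at P14 and 568, 601, 461 and 449.7 CPM at P24. At P60 it was at 1853, 1821, 2032 and 1717 CPM. The 7 stages kept their order of age with no overlap between the libraries of neighbouring stages, and the P60 mean of 1856 ± 131 CPM (SD, n = 4) was 1134.5 times the E13 mean of 1.64 ± 0.195 CPM.

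The steps of Cntf were unequal in size. It rose by 1.85 ± 0.15 in P1 against E17 (adjusted p = 3.04e-10), by 3.17 ± 0.14 in P5 against P1 (1.41e-14) and by 2.25 ± 0.13 in P14 against P5 (2.10e-12). The step of P24 against P14 was 0.59 ± 0.13 (0.00450), under the 2-fold minimum, and that of P60 against P24 was again a call at 1.84 ± 0.13 (1.44e-10). E17 against E13 gave 0.43 ± 0.17 (0.0292), also under the minimum. P60 exceeded P1 231-fold (adjusted p = 4.32e-22). Beside this, the summed level of the myelinating Schwann cell markers Mbp, Ncmap, Pmp22, Mag and Prx was 2516 to 2885 CPM at E17, 13636 to 25356 CPM at P1 and 60312 to 66468 CPM at P5. It was 102474 to 125318 CPM at P14, 94884 to 124712 CPM at P24 and 66626 to 85281 CPM at P60. The marker sum was lower in every P60 library than in every P24 library, while Cntf was higher in every P60 library. The sum is weighted toward abundant transcripts such as Mbp, which averaged 42660 CPM at P24 and 28317 CPM at P60. Ncmap overlapped between P24 (964 to 1190 CPM) and P60 (831 to 1085 CPM). Sox10 overlapped too (321 to 462 and 332 to 502 CPM). The part of cell makeup in the Cntf levels was not tested.

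Most of the annotated Cntf transcript is shared with a neighbour. Of its 1073 exon bases, 847 (78.9%) also lie in exons of Zfp91, a zinc finger gene on the same strand whose annotated span takes in Cntf, and the 226 others span chr19:12765407-12765632. Zfp91 averaged 106 ± 33.9 CPM at E13, 155 ± 3.91 CPM at E17, 197 ± 22.4 CPM at P1 and 2131 ± 141 CPM at P60, and it lay above Cntf in all 28 libraries. After subtraction of the Cntf level, what remained for Zfp91 was 189 ± 21.3 CPM at P1 and 185 ± 15.1 CPM at P5. It was 206 ± 8.53 CPM at P14, 226 ± 24.7 CPM at P24 and 275 ± 15.6 CPM at P60. The remainder thus stayed within a far narrower range than Cntf. Over the whole table, 264 genes with at least 100 counts had all their exons inside those of another gene on the same strand, and 264 of 264 had no more counts than the outer gene. A read in shared exons can therefore stand in both totals, and whether the few Cntf counts of the embryonic libraries (27 to 64 per library) came from Cntf or Zfp91 transcripts cannot be told apart in this table.

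**Figure D3:**
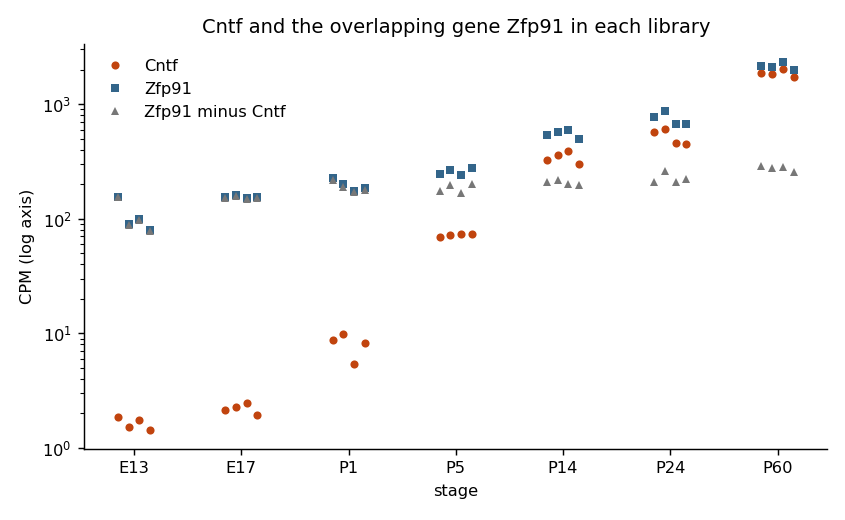
Cntf, the overlapping gene Zfp91 and the difference between them in each library by stage, in CPM on a log axis. At E13 and E17 nearly all of the Zfp91 level remains after subtraction of Cntf, and at P60 the remainder is 275 ± 15.6 CPM beside 1856 ± 131 CPM for Cntf.

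Lif (ENSMUSG00000034394, chr11:4257557-4272514, plus strand), a ligand of LIFR and IL6ST, was a low-level transcript throughout, with 12 to 189 counts per library. It was at 0.464, 1.29, 0.650 and 0.632 CPM at E13 and at 2.25, 1.90, 3.22 and 3.27 CPM at E17. It was at 1.20, 1.54, 1.68 and 1.37 CPM at P1 and at 1.83, 2.01, 2.40 and 1.25 CPM at P5. The E17 libraries all lay above those of E13 and P1, and the P1 and P5 libraries overlapped. Lif was at 2.91, 2.88, 3.14 and 2.66 CPM at P14, at 8.91, 6.38, 5.78 and 7.11 CPM at P24 and at 10.01, 10.9, 11.01 and 11.2 CPM at P60. From P14 on the stages did not overlap, and P60 was highest.

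Lif rose by 1.81 ± 0.26 in E17 against E13 (adjusted p = 9.88e-07) and by 1.27 ± 0.23 in P24 against P14 (6.92e-04). The value for P1 against E17 was -0.88 ± 0.24 (0.00660) and that for P14 against P5 was 0.63 ± 0.24 (0.0442), both under the 2-fold minimum. P1 against E17 crossed the minimum at -1.01 without E17 replicate 2. P5 against P1 (0.37 ± 0.24, 0.336) and P60 against P24 (0.62 ± 0.22, 0.0570) did not pass the test. From P1 to P60 Lif rose 7.44-fold (2.90 ± 0.24, adjusted p = 5.78e-11).

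Clcf1 (ENSMUSG00000040663, chr19:4214238-4223490, plus strand), the second ligand of CNTFR, had the smallest ratio of highest to lowest stage mean among the 6 genes, at 2.01. Its stage means ran from 2.31 ± 0.393 CPM at P1 to 4.65 ± 1.42 CPM at P60 (SD, n = 4). The P1 libraries were at 2.00, 2.00, 2.41 and 2.82 CPM, and the P60 libraries at 3.36, 6.68, 4.41 and 4.14 CPM. The P1 and P60 libraries did not overlap, whereas all neighbours in the order of the stage means did. P60 against P1 was called at 1.00 ± 0.29 (adjusted p = 0.00348), a 2.01-fold change that sits at the minimum. Without P60 replicate 2, the highest library, the value was 0.78 (adjusted p = 0.0268) and was not called, and it also fell under the minimum without P1 replicate 1 (0.97) or P1 replicate 2 (0.94). With the replicate number as a block it was 0.983, and with the block and a GC correction 0.994, neither of them called. Without P60 replicate 2 it also failed the test for any change over the stages, which 5 of 6 members then passed. No adjacent step was called, the value farthest from 0 being 0.60 ± 0.29 in P60 against P24 (0.168). Another annotated gene shares 8.2% of its exon bases.

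By reads per length, Cntf held the main share of the 3 ligands from P1 on. Per kilobase of exon, Cntf made up 64.2% ± 10.8 of the summed CPM of the 3 ligands at E13 and 57.9% ± 5.97 at E17 (SD, n = 4). The share was 88.4% ± 3.70 at P1, 98.4% ± 0.362 at P5 and 99.8% ± 0.0306 at P60. The embryonic shares rest on Cntf counts that cannot be told apart from those of Zfp91, so which ligand led at E13 and E17 is not settled by these values. Reads of the unshared Cntf bases were not counted apart at any stage, and at P1 Cntf was at 8.04 CPM beside 197 CPM for Zfp91. Of the other ligands, Clcf1 made up 28.8% and Lif 7.07% at E13.

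Cntfr (ENSMUSG00000028444, chr4:41657498-41697089, minus strand), the ligand-binding chain for CNTF, fell up to P1 and was higher again in the adult. It was at 20.1, 40.7, 37.3 and 58.6 CPM at E13, at 20.1, 18.7, 21.9 and 18.8 CPM at E17 and at 2.84, 6.70, 6.89 and 7.07 CPM at P1. All P1 libraries lay below all embryonic libraries, and P1 replicate 1 stood apart from the other 3. It was at 7.38, 7.71, 8.90 and 7.38 CPM at P5 and at 10.2, 8.19, 10.7 and 12.8 CPM at P14. It was at 13.01, 6.07, 17.2 and 19.2 CPM at P24 and at 26.4, 11.8, 24.2 and 29.1 CPM at P60. Replicate 2 was the lowest library at both P24 and P60, and every P60 library lay above every P1 library.

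Cntfr fell by 1.76 ± 0.32 in P1 against E17 (adjusted p = 1.15e-04) and rose by 1.96 ± 0.32, or 3.89-fold, in P60 against P1 (7.74e-06). E17 against E13 gave -0.98 ± 0.31 (0.00763), just short of the minimum, and it crossed the minimum without E13 replicate 1 (-1.21), E13 replicate 3 (-1.01) or E17 replicate 3 (-1.04). It was also called with library sizes as the only scaling (-1.21), with DESeq2 size factors or the DESeq2 test (both -1.02) and with a 1 CPM filter (-1.01). None of the 4 adjacent steps after P1 passed the test, with values of 0.41 to 0.72 and adjusted p of 0.127 to 0.613.

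Perineurial markers moved with Cntfr among the P24 and P60 libraries. Cldn1, a tight junction gene of the perineurium, was at 129, 37.7, 151 and 188 CPM at P24 and at 234, 57.1, 158 and 198 CPM at P60. Lypd2, another perineurial marker, was at 11.5, 2.51, 15.8 and 14.1 CPM at P24 and at 20.8, 4.79, 10.3 and 13.3 CPM at P60. In each of these, replicate 2 was the lowest library of its stage, as it was for Cntfr. The summed perineurial markers Slc2a1, Cldn1, Lypd2 and Ntng1 were at 92.7 to 122 CPM at P1 and at 311 to 550.3 CPM at P60, and their part in the Cntfr levels was not tested. P24 replicate 2 was also lowest for other lists, with a fibroblast-like sum (Pdgfra, Col1a1, Lum and Dcn) of 3294 CPM against 5832 to 6333 CPM and an endothelial sum (Pecam1, Cdh5, Emcn and Egfl7) of 205 CPM against 280.2 to 308 CPM. Its pericyte or smooth muscle sum was 225 CPM against 297 to 372 CPM, its macrophage sum 118 CPM against 171 to 198 CPM and its adipocyte sum 1.36 CPM against 37.7 to 73.9 CPM. It was highest of its stage for the myelinating (124712 CPM) and the immature or non-myelinating (1177 CPM) Schwann cell sums. P60 replicate 2 was highest for the myelinating sum (85281 CPM against 66626 to 73347 CPM) and lowest for the mast cell (19.3 CPM against 27.0 to 32.1 CPM) and adipocyte (51.2 CPM) sums. It was lowest by a narrow margin for the endothelial sum (303.7 CPM, the next at 304.4 CPM) and the immature or non-myelinating Schwann cell sum (1114 CPM, the next at 1115 CPM), whereas the fibroblast-like, pericyte or smooth muscle and macrophage sums were lowest in P60 replicate 3. At P1 the perineurial markers did not share 1 order, since replicate 1, the lowest for Cntfr, was also lowest for Slc2a1 (16.3 CPM against 23.7 to 28.2 CPM) but second highest for Cldn1 (66.8 CPM). Without P1 replicate 1, P24 replicate 2 and P60 replicate 2 together, Cntfr was still called in P60 against P1, as it was without each library of P1 and P60 in turn (1.76 to 2.17).

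**Figure D4:**
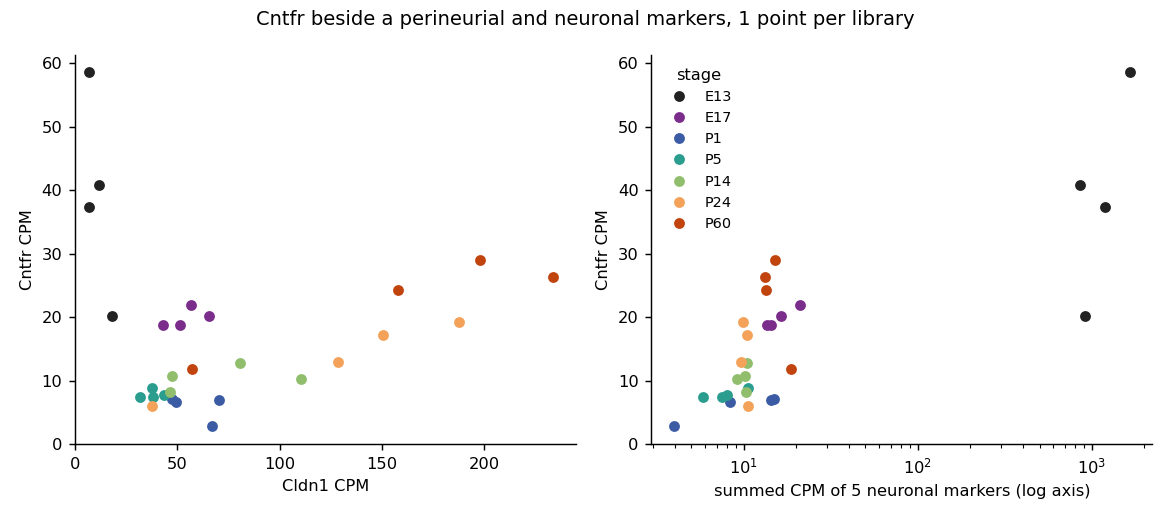
Cntfr in CPM against the perineurial marker Cldn1 in CPM (left) and against the summed CPM of the 5 neuronal cell body markers on a log axis (right), with 1 point per library coloured by stage. At P24 and P60 the library with the lowest Cldn1 also has the lowest Cntfr (6.07 and 11.8 CPM), and the 4 E13 libraries stand apart on the right with neuronal sums of 859 to 1649 CPM.

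Lifr (ENSMUSG00000054263, chr15:7090614-7197489, plus strand), the receptor chain common to all 3 ligands, was at 74.2, 52.8, 32.3 and 24.7 CPM at E13 and at 104, 102, 98.9 and 90.9 CPM at E17. The E13 libraries were spread over a wider range than those of any later stage, and all lay below those of E17. At P1 it was at 104, 78.6, 80.8 and 70.9 CPM, and at P60 at 162, 153, 158 and 145 CPM. It averaged 73.8 ± 4.45 CPM at P5, 95.8 ± 10.4 CPM at P14 and 118 ± 11.6 CPM at P24. The P60 libraries lay above those of every other stage. Lifr was called in E17 against E13 (1.10 ± 0.20, adjusted p = 2.81e-05), but not without E13 replicate 3 (0.96) or E13 replicate 4 (0.89). P60 against P1 gave 0.89 ± 0.20 (3.37e-04, 1.85-fold), and 1.04 without P1 replicate 1, which then passed the minimum. The adjacent steps after E17 ran from -0.24 to 0.39, and none passed the test.

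Il6st (ENSMUSG00000021756, chr13:112464070-112510086, plus strand), the chain shared by the whole cytokine family, was at 223, 200.3, 162 and 117 CPM at E13 and at 364, 365, 358 and 333 CPM at E17. At P1 it was at 396, 316, 346 and 324 CPM, and at P60 at 655, 493, 575 and 539.9 CPM. The E13 libraries were all below those of E17, and the P60 libraries all above those of P1. It averaged 306 ± 7.26 CPM at P5, 342 ± 34.6 CPM at P14 and 436 ± 68.8 CPM at P24. E17 against E13 was called at 1.01 ± 0.14 (adjusted p = 9.08e-07), but it fell under the 2-fold minimum without E13 replicate 3 (0.97), E13 replicate 4 (0.86), E17 replicate 1 (0.998) or E17 replicate 2 (0.99). P60 against P1 gave 0.71 ± 0.14 (1.09e-04, 1.64-fold). The steps after E17 ran from -0.17 to 0.37 and none passed the test.

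The ratio of the 2 signalling chains had similar stage means. Per kilobase, Il6st exceeded Lifr 3.49 ± 0.0635-fold at E17, and the stage means of this ratio lay between 3.48 and 4.05. Libraries spread more at all other stages, for example from 2.92 to 4.88 at E13, from 2.89 to 3.78 at P14 and from 2.92 to 4.35 at P24. The ratio of Cntfr to Lifr per kilobase was 4.43 ± 3.47 at E13, with libraries from 1.05 to 9.19, then 0.780 ± 0.0640 at E17, 0.288 ± 0.124 at P1 and 0.576 ± 0.201 at P60. At E13 the Cntfr transcript thus lay above Lifr in every library, and from E17 on its mean lay below. By a two-sided exact permutation test on 4 libraries of each stage, log2 Cntfr over Lifr differed by -2.11 in E17 against E13 and by -1.59 in P1 against E17 (both p = 0.029, the smallest that the design can give). Log2 Il6st over Lifr differed by 0.21 in P1 against E17 and by -0.22 in P14 against P5 at the same p. After adjustment over the 14 ratio tests these 4 had an exact permutation p = 0.1, so none passed 0.05. With only 4 of 14 tests at the smallest possible p, the adjusted p could not be lower. It therefore cannot decide whether these ratios differed. From E13 replicate 1 to replicate 4 the neuronal sums were 913, 859, 1189 and 1649 CPM. The erythroid sums were 587, 1127, 1242 and 5642 CPM. Over the same libraries Lifr, Il6st and the kinase gene Jak2 (65.5, 33.0, 26.4 and 13.4 CPM) fell steadily. The adaptor gene Grb2 rose (94.4, 95.5, 128 and 142 CPM). The part of any of these in the E13 ratio was not tested.

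Genes whose profiles were most like each member were sought among 11368 protein-coding genes, as the smallest root mean square difference of centred log2 CPM over the 28 libraries. Il6st and Lifr were each among the 3 nearest genes of the other, at 0.19. Nearest to Lifr were Fcho2 (0.17) and Kmt2c (0.18), and nearest to Il6st were Jade1 (0.16) and Cdc14a (0.18). Nearest to Cntf were Lctl at 0.73, H2-DMb1 at 0.92 and Cndp1 at 0.93, beside a standard deviation of its own of 3.79. The difference grows with a gene's own spread, so it is not comparable between members. The standard deviations of the others were 1.25 (Lif), 0.985 (Cntfr), 0.613 (Lifr), 0.528 (Il6st) and 0.470 (Clcf1). H2-DMb1 has a near-identical copy, so its level is uncertain. Nearest to Lif were Slc1a5 (0.33), Tor3a (0.44) and Tns2 (0.45), nearest to Cntfr were Sulf2 (0.40), Id1 (0.48) and Nfatc4 (0.49), and Irs2, Myadm and Khnyn (each 0.34) were nearest to Clcf1.

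The rest of the family and its pathway was described through 39 genes with textbook roles in gp130 and JAK-STAT signalling, of which 35 were tested. The ligand genes Il6, Ctf2, Osm and Il27 were not, with 12, 0, 77 and 8 counts over all 28 libraries. In P60 against P1, 12 of the 35 were called higher and 2 lower (beside 20.3% and 15.2% of all genes), with a median log2 fold change of 0.75 against -0.02 over all genes tested. By role, the called genes were 2 of 4 other ligands, 3 of 4 other receptors, 1 of 9 kinases, adaptors and STATs, 2 of 8 inhibitors and 6 of 10 STAT3 target genes. Between adjacent stages 10 of 35 were called in E17 against E13 (beside 35.5% of all genes), 6 in P1 against E17 (11.7%), 3 in P5 against P1 (5.84%) and 4 in P14 against P5 (12%). There was 1 in P24 against P14 (2.65%), and there were 5 in P60 against P24 (5.96%). The median was 0.28 in E17 against E13 and between 0.04 and 0.24 in the other adjacent comparisons.

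Of the other receptors of the family, 3 of 4 were higher at P60 than at P1. Osmr, the oncostatin M receptor chain that pairs with IL6ST, rose from 4.12 ± 0.972 CPM at P1 to 47.8 ± 7.23 CPM at P60 (3.54 ± 0.23, adjusted p = 3.24e-13). Summed markers of several other cell types were also higher at P60 than at P1. Medians were 494 against 101 CPM for perineurial cells, 377 against 78.5 CPM for pericytes or smooth muscle and 311 against 151 CPM for endothelial cells. They were 152 against 84.6 CPM for macrophages, 71488 against 20540 CPM for myelinating Schwann cells and 87.2 against 0.133 CPM for adipocytes. Lower at P60 were the fibroblast-like (4519 against 5068 CPM), erythroid (28.9 against 104 CPM), cartilage (3.83 against 44.6 CPM) and skeletal muscle (0.145 against 0.482 CPM) markers. Their part in the levels of the wider list was not tested. Il6ra, the interleukin 6 receptor chain, rose in P5 against P1 (1.19 ± 0.13, 8.12e-08) and in P60 against P24, from 25.5 ± 0.991 to 74.2 ± 8.49 CPM (1.54 ± 0.12, 9.76e-10). Il27ra rose in E17 against E13 (2.62 ± 0.42, 4.74e-06) from 0.243 ± 0.0709 to 1.503 ± 0.856 CPM. Of the ligand subunits, Ebi3 fell in E17 against E13 by 2.54 ± 0.41 (6.16e-06).

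Among kinases and STATs in P60 against P1, Jak1 gave 0.03 ± 0.14 (adjusted p = 0.845) and Stat3 gave 0.75 ± 0.09 (4.28e-08), the latter under the 2-fold minimum. Among the inhibitors Socs3, the feedback inhibitor of gp130 receptors, rose by 2.03 ± 0.20 (1.47e-09). Socs2, better known for restraining growth hormone signalling, fell by 1.68 ± 0.16 (6.09e-10), having fallen by 2.11 ± 0.16 in E17 against E13 and risen by 1.39 ± 0.15 in P1 against E17. Core genes named here beyond the members, Jak1, Stat3 and Socs3, were chosen after their values were seen.

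Among the STAT3 target genes, 5 rose and 1 fell in P60 against P1. Gfap, an intermediate filament gene of non-myelinating Schwann cells, rose from 0.122 ± 0.0538 CPM to 9.51 ± 2.04 CPM (6.19 ± 0.49, adjusted p = 2.10e-11), with 1 to 5 counts per library at P1. Its P1 level followed a called fall by 1.78 ± 0.58 in P1 against E17 (0.0198), after a called rise of 1.28 ± 0.56 in E17 against E13 (0.0466), with at most 13 counts in any library of these 3 stages. It rose in P14 against P5 (3.42 ± 0.49, 5.17e-06) and in P24 against P14 (2.04 ± 0.37, 8.10e-04). Of 4 markers of immature or non-myelinating Schwann cells, Scn7a averaged 186 ± 37.6 CPM at P1, 168 ± 14.7 CPM at P5, 581.5 ± 24.7 CPM at P14 and 977 ± 101 CPM at P60. The other 3 were lower at P60 than at P1, with Ngfr at 36.2 after 226 CPM, Ncam1 at 90.1 after 263 CPM and L1cam at 104 after 154 CPM. Their sum was 796 to 872 CPM at P1, 574.5 to 619.6 CPM at P5, 883 to 973 CPM at P14, 796.5 to 1177 CPM at P24 and 1114 to 1308 CPM at P60, and their part in the Gfap level was not tested. Bcl6, a transcriptional repressor, rose from 2.23 ± 0.471 to 37.2 ± 2.19 CPM in P60 against P1 (4.06 ± 0.24, 4.91e-14), with called steps of 2.26 ± 0.22 in P14 against P5 and 1.19 ± 0.21 in P60 against P24. Cebpd rose by 1.58 ± 0.28 in P14 against P5 (7.76e-05), and Junb, an AP-1 subunit, by 1.43 ± 0.39 in P60 against P24 (0.0114). Myc rose by 1.44 ± 0.16 in P1 against E17 (5.45e-08) and fell by 1.15 ± 0.15 in P5 against P1 (3.99e-06). All of these genes answer to other signals as well.

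**Figure D5:**
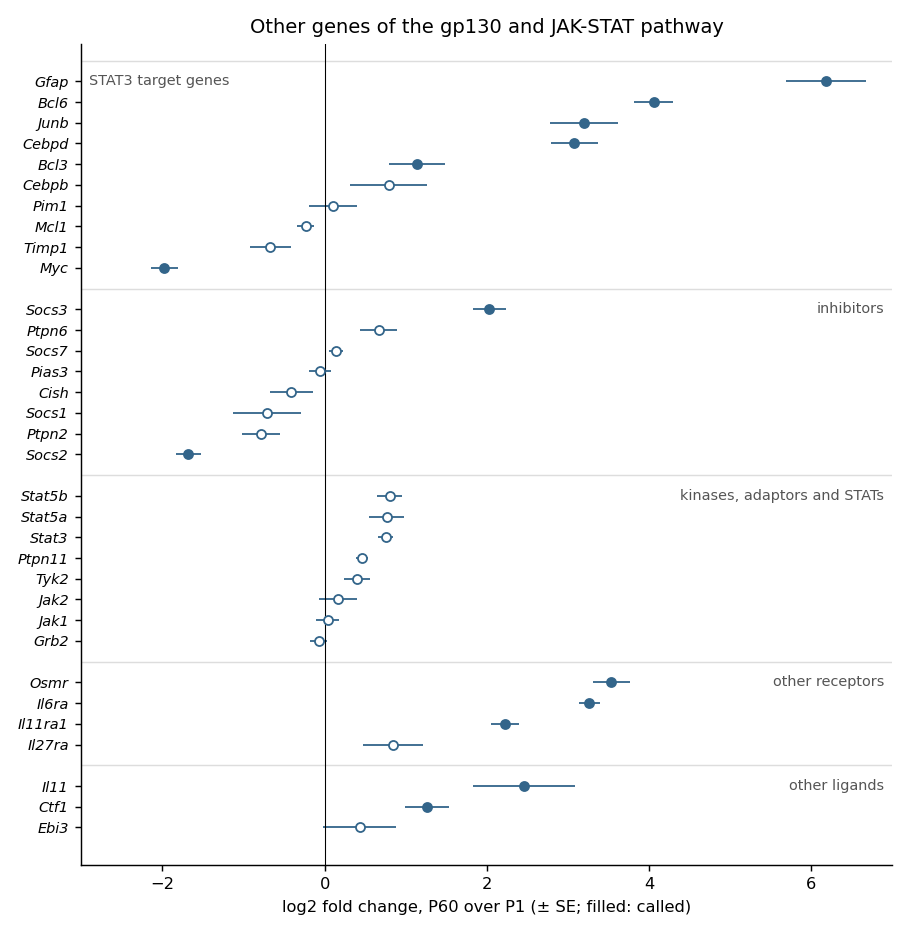
Log2 fold change of 33 tested genes of the wider list in P60 against P1, by role, with bars of 1 standard error filled where called. Gfap, Bcl6 and Osmr lie farthest to the right at 6.19, 4.06 and 3.54.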

How the data were processed

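The authors prepared stranded TruSeq poly-A libraries, ran them single-end on a HiSeq4000, aligned them with STAR 2.6.1c and deposited raw read counts per gene from featureCounts, which they had not normalized. The submitters' processing notes name GRCm38.p5 as the build, whereas the methods name a human one. The strand and multi-mapping settings of the counting are not given in the sources used here.

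Total counts ran from 13899895 to 37662780 per library, which limits genes with few counts. Of 41605 identifiers, 41519 (99.79%) matched GENCODE M21 on GRCm38, which supplied symbols, coordinates and exon lengths. Groups were the labelled stages. All 28 libraries entered 1 edgeR 4.0.16 quasi-likelihood fit (R 4.3.3, filterByExpr by stage, TMM, robust estimation, common dispersion 0.044) with the stage as the only term, and p-values were adjusted over 17700 genes. The methods name no test for this timeline, and the study describes independent animals per stage. The standard error was the log2 fold change over the square root of F. Receptor ratios used a prior of 0.5 count.

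The 6 members, the wider list, the markers and the tests were chosen with earlier results of these data known. Named were all members, per comparison the 3 called genes of the wider list with the largest change and at least 1 CPM in the higher stage, genes overlapping a member by exon, and the 3 most similar profiles per member among protein-coding genes with a stage mean of at least 10 CPM (prior count 2). Alternatives were other scalings, filters and tests (limma 3.58.1 voom, DESeq2 1.42.0), a GC correction, a replicate block, fewer stages, no fold minimum and left-out libraries. The fit was tested on simulated data. Values of some genes are not reported here.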

Additional observations from a re-analysis of the deposited data

Results flagged for a closer look

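Cntfr in P1 replicate 1 was at 2.84 CPM, apart from the other 3 P1 libraries at 6.70 to 7.07 CPM. Its gap to the nearest library was 0.913 of the range of the stage, above Dixon's 95% critical value for 4 samples. It was the 1 such case among 42 groups of member and stage, and chance gives about 1 in 20 groups. Other genes set this library apart too, with Sox10 at 209 CPM against 382 to 419 CPM, Mbp at 4420 CPM against 7409 to 10583 CPM, Slc2a1 at 16.3 CPM against 23.7 to 28.2 CPM and the fibroblast-like sum at 3206 CPM against 4501 to 5639 CPM. Cntfr remained called in P1 against E17 and in P60 against P1 without this library.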

How the results depend on the processing

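Of 486 fold changes of the members under the alternatives other than single left-out libraries, 466 kept their direction and their side of the threshold, and of 336 without 1 library 318 did. Without the 2-fold minimum, the members called were 5 in E17 against E13, 2 in P14 against P5 and 2 in P24 against P14, beside 62.2%, 29.6% and 5.45% of all genes. Lifr and Il6st were then also called in P60 against P1 (beside 61.1%) and Lif in P1 against E17 (beside 29.5%). The wider list then gave 25, 11, 7, 14 and 23 of 35 in E17 against E13, P1 against E17, P5 against P1, P14 against P5 and P60 against P1, beside 62.2%, 29.5%, 17.6%, 29.6% and 61.1%. Leaving out 1 library gave 1 to 4 members in E17 against E13, and 1 to 2 genes of the wider list in P24 against P14 (2 without P24 replicate 2) and 3 to 6 in P60 against P24 (3 without P24 replicate 4). The omission of P1 replicate 1, P24 replicate 2 and P60 replicate 2 together, chosen after seeing the data, gave 2 genes of the wider list in P24 against P14, Clcf1 at 0.72 in P60 against P1 (adjusted p = 0.0520) and Lifr, then called, at 1.01.

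With library sizes as the only scaling, the median of all genes shifted by -0.25 in E17 against E13 and by up to 0.19 in size in the others. Under it Clcf1 turned to -0.13 in P5 against P1 and to -0.15 in P14 against P5, Il6st turned to -0.013 in P14 against P5, and the calls of Lifr (0.84) and Il6st (0.76) in E17 against E13 and of Clcf1 in P60 against P1 (0.80) were lost. Il6st in P1 against E17 was 0.0076 with no filter. Without 1 library it ran from -0.12 to 0.0034, Clcf1 in P5 against P1 from -0.058 to 0.21, and Clcf1 in P14 against P5 from -0.12 to 0.14. None of these turned values had been called. The call of Il6st in E17 against E13 was also lost with DESeq2 size factors, the DESeq2 test or a 1 CPM filter (each 0.99). Cntfr in E17 against E13 was called with library size alone (-1.21), DESeq2 size factors or test (-1.02) or a 1 CPM filter (-1.01). The call of Clcf1 was also lost with no filter (0.93) or voom (0.89). The cause of these changes was not tested.

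The correlations of deviations between same-numbered libraries ran from -0.202 to 0.571. Their medians were 0.0724, 0.0941, 0.0896 and 0.0502 for replicate numbers 1 to 4. No differently numbered libraries were set beside these, so the values cannot show whether replicate numbers pair the libraries. The study used mice of both sexes at each stage, and sex was not a term of the fit. With the replicate number as a block, Clcf1 in P60 against P1 was 0.98 (adjusted p = 0.00529), under the 2-fold minimum (0.99 with the block and a GC correction), so that 3 rather than 4 members were called, and no other call of a member changed.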
